A study of Mus musculus with 27 samples.

Results

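The comparison set whole liver taken 6 days after the pups were weaned (ID6, 6 libraries, 1 per labelled sample) against whole liver of nulliparous females, which had never been pregnant (NUL, 4 libraries). The libraries were chosen by their labels alone, and these 10 are among 27 bulk RNA-seq libraries of 7 stages of a reproductive cycle. The mice were wild-type BALB/c of matched age, bred at 10 to 12 weeks, and litters were made equal in size. Weaning at 10 to 14 days of lactation started involution, the regression of the mammary gland once milk is no longer removed, at a fixed time. The other stages were lactation day 10 (LAC, 3 libraries), 2, 4 and 8 days after weaning (ID2, 3; ID4, 4; ID8, 3) and 4 weeks after weaning (REG, 4), and the REG animals had also been pregnant and had lactated. No animal carried a transgene or received a drug. Livers were frozen and ground to powder before RNA extraction, so each library mixes all cell types of the organ. Nothing in the labels says whether the samples of a group came from separate cages or litters, so p-values measure the spread between these samples.

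The liver supplies lipid, cholesterol and glucose to the lactating gland, and at weaning that demand ends while the animal goes back to its ordinary food intake. Hepatocytes make cholesterol from acetyl-CoA through mevalonate and squalene, and the genes of this chain are switched together by SREBP2, the protein made from Srebf2, which is cut and sent to the nucleus when sterols in the endoplasmic reticulum are low. Fatty acids that are not exported are burned in mitochondria and peroxisomes under the control of PPAR alpha, a nuclear receptor that is active in fasting. Kupffer cells, the macrophages that line the sinusoids, take up worn red cells and debris.

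Totals of expected counts lay between 60498871 and 70815012 in the NUL libraries and between 65089732 and 75664540 in the ID6 libraries. Albumin transcripts made up 7.99% to 10.2% of the counts in NUL and 8.12% to 11.9% in ID6, and none of the 8 hepatocyte markers was called. All 4 Y-linked genes looked for (Ddx3y, Eif2s3y, Kdm5d and Uty) were at 0 in these 10 libraries. Mitochondrial transcripts made up 4.00% to 5.17% of the counts in NUL and 2.87% to 4.47% in ID6. The libraries had been sequenced in 1 or 2 runs (1 run for 1 NUL and 2 ID6 libraries), and with the number of runs as a term in the fit 186 genes were called in place of 178. No 2 libraries of a group agreed within sampling noise, with a chi-square per gene of at least 59.7 within ID6 and 80.1 within NUL.

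Of 16428 genes tested with edgeR's quasi-likelihood test in a fit of all 27 libraries, 178 (1.08%) had a Benjamini-Hochberg adjusted p under 0.05, and these are the genes spoken of as called. Of the called genes, 66 were higher (0.402% of those tested) and 112 lower (0.682%) 6 days after weaning. A difference of more than 1 on the log2 scale was fitted for 13 of the genes called higher and 42 of those called lower. At an unadjusted p under 0.05 there were 1962 genes (5.92% of those tested higher and 6.02% lower), and the median log2 fold change of all tested genes was 0.004. Irrespective of the test, every ID6 library lay above every NUL library for 261 genes (1.59%) and below every NUL library for 294 (1.79%). Such a gap between the groups was present for 156 of the 178 called genes. Of the calls, 37.1% were higher with edgeR, and 65.5% of 200 with limma on log2(TPM + 1), which differs in both the test and the unit. Without NUL_221 there were 28 genes called higher and 73 lower, without NUL_227 28 and 80, without ID6_216 41 and 81, and 65 genes stayed called whichever of the 10 libraries was left out.

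**Figure D1:**
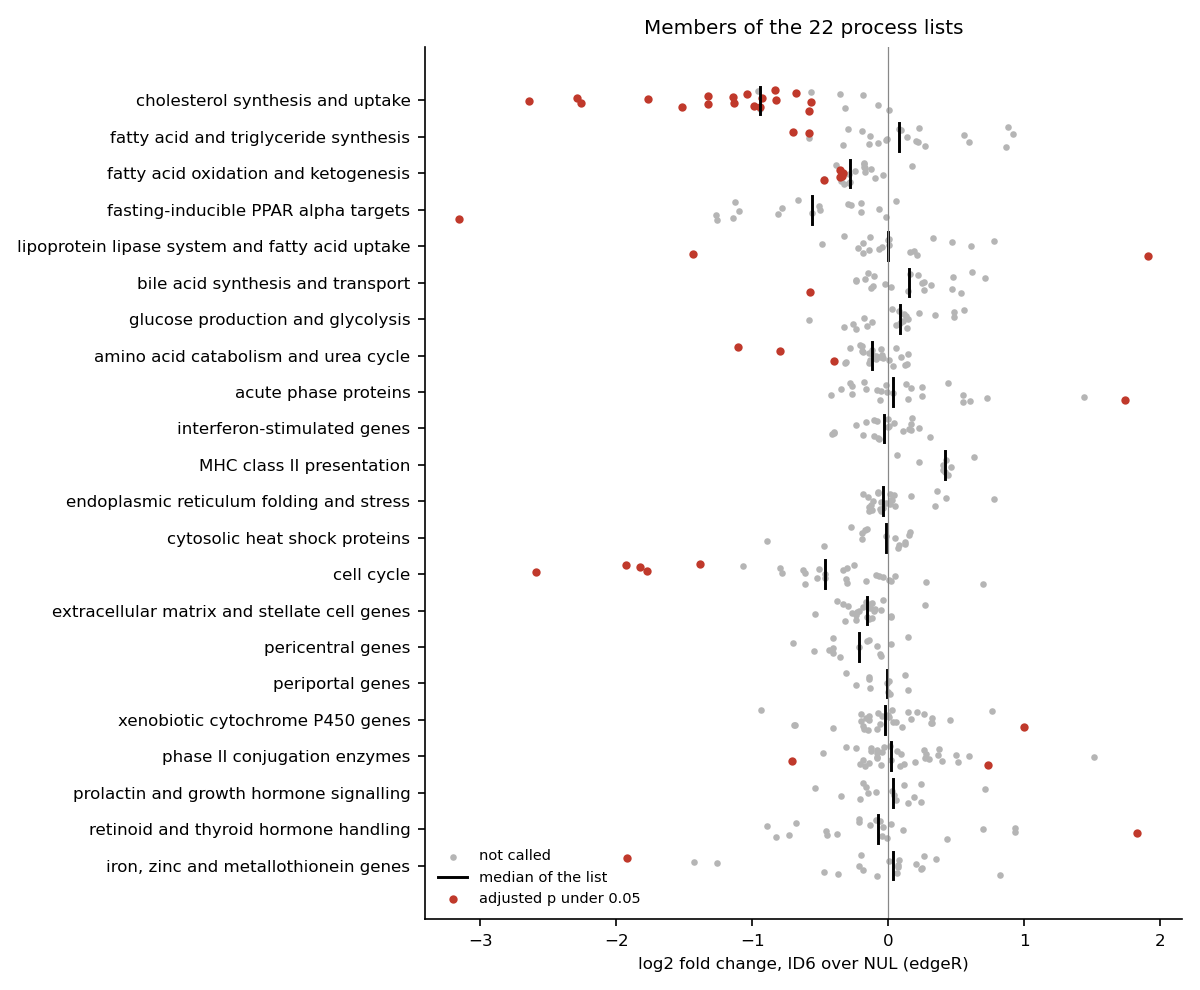
Each point is 1 gene of the 22 process lists, placed on the horizontal axis by its log2 fold change in ID6 over NUL, with called genes in red and the median of each list as a black bar. The cholesterol list is shifted to the left with 18 called genes and a median of -0.94, and most other lists are centred near 0.

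Among the process lists the largest share of called genes was in cholesterol synthesis and uptake, where 18 of 26 members (69.2%) were called lower in ID6 and none higher, against 0.682% of all tested genes called lower. The median log2 fold change of the list was -0.94, and 19 of its members were lower in every ID6 library than in any NUL library, as were 1.79% of all genes. The called genes reported here spanned the chain from its regulator Srebf2 and the early enzyme Hmgcs1 through the mevalonate and isoprenoid steps (Mvk, Mvd, Idi1, Fdps), squalene formation and closure of the sterol ring (Fdft1, Sqle, Lss) to the trimming of the sterol (Cyp51, Tm7sf2, Msmo1, Nsdhl, Hsd17b7, Dhcr7). Stard4, which carries cholesterol between membranes, was also among them. The summed level of the 26 genes was 3378 to 4724 CPM in NUL and 1979 to 2642 CPM in ID6. Levels in CPM are counts scaled to an equal library size but not for transcript length, so they are compared between libraries and not between genes.

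SREBP2 binds sterol regulatory elements together with NF-Y, which recognises the sequence CCAAT. In the RefSeq promoter table (GRCm38.p6), 12 of the 18 called genes had an entry, with 14 start sites between them because Dhcr7 has several. In the 250 bases before the start, CCAAT or its complement was present in 12 of the 14 windows, against 33.8% of 32851 promoters of the same length. By gene it was present for 12 of 12, but for Dhcr7 only at the start furthest downstream. Among the windows that held it, those of that start, Tm7sf2 and Idi1 lie wholly in annotated exons. The core element TCACNCCAC was found on either strand for 1 gene, Hmgcs1, against 1.05% of all promoters. A match is a string of letters and not a measured binding site, and no match says nothing about binding. The promoters of 4 of these genes are shown, taken from among those whose windows lie wholly or mostly outside annotated exons and hold CCAAT. Bases in a GENCODE exon were left off, capitals mark CCAAT on either strand (read as ATTGG on the other) and, in Hmgcs1, also the core element. Hmgcs1 is at chr13:119690101-119690350 on the plus strand, Mvd at chr8:122443423-122443672 on the minus strand, Mvk at chr5:114444061-114444268 on the plus strand and Lss at chr10:76531355-76531587 on the plus strand.
Hmgcs1: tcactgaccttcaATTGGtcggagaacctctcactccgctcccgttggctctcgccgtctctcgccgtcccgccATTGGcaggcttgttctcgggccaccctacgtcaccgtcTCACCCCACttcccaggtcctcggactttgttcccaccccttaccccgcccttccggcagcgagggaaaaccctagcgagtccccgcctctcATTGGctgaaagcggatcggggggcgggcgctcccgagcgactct
Mvd: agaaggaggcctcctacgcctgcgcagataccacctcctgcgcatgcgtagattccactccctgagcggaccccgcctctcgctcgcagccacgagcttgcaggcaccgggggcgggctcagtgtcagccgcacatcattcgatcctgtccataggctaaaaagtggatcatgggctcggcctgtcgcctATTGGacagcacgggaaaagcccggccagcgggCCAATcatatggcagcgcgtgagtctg
Mvk: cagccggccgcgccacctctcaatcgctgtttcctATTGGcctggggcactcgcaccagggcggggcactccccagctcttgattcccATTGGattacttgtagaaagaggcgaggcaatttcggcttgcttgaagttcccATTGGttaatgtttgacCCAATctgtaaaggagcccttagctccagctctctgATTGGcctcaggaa
Lss: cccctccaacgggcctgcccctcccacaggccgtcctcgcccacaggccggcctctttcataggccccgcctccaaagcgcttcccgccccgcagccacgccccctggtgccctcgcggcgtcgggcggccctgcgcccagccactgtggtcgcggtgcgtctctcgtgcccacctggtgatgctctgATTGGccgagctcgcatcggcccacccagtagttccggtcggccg

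Sqle (chr15:59315077-59331192, GRCm38) makes squalene epoxidase, a rate-limiting enzyme of the sterol branch. Its level was 25.9, 45.4, 46.9 and 82.5 CPM in the NUL libraries, and in ID6 the lowest value was 5.60, the median 6.48 and the highest 12.0 CPM. The groups were far apart, with the highest ID6 library below the lowest NUL library, and the fitted log2 fold change was -2.64 (SE 0.31, edgeR adjusted p = 4.66e-05). Msmo1 (chr8:64718139-64733792), which removes methyl groups from the sterol ring, measured 50.1, 87.8, 64.0 and 99.6 CPM in NUL, while ID6 ran from 11.6 through a median of 16.1 to 19.4 CPM. It had the smallest adjusted p of the whole comparison, 7.78e-09 in edgeR, with a log2 fold change of -2.28 (SE 0.16). Idi1 (chr13:8885501-8892451), the isomerase that supplies the active isoprene unit, was at 87.2, 134, 115 and 178 CPM in NUL and at 19.2 (lowest), 25.8 (median) and 39.1 CPM (highest) in ID6. Here too all ID6 libraries lay below all NUL libraries, with a log2 fold change of -2.26 (edgeR adjusted p = 1.31e-06, SE 0.21).

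Cyp51 (chr5:4081145-4104746), the demethylase that acts on lanosterol, fell by 1.77 on the log2 scale (SE 0.14, edgeR adjusted p = 3.73e-08). Its NUL libraries were at 69.9, 100.3, 96.7 and 144 CPM and its ID6 libraries between 25.6 and 34.7 CPM. Hmgcs1 (chr13:119690379-119708260), which condenses acetyl groups to HMG-CoA, was at 208, 383, 283 and 453 CPM in NUL and at 104 to 137 CPM in ID6, a log2 fold change of -1.51 (edgeR adjusted p = 3.32e-05, SE 0.18). Among the smallest called changes of the list were -0.57 for Fdft1 and -0.58 for Srebf2. NUL_227 was the highest NUL library for 17 of the 18 called genes, and without it 14 genes of the list were called, and the calls of Fdft1 (edgeR adjusted p = 0.0735), Fdps (0.0936) and Mvd (0.127) were among those lost. Mvd lost its call without any 1 of 7 libraries. Idi1, Tm7sf2, Fdps and Fdft1 had fractional counts in 16 to 26 libraries, meaning that reads were shared with similar sequences and were split by the authors' estimate.

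The other 8 list members were not called. Insig1, which holds the SREBP complex back, gave a log2 fold change of -0.94 (edgeR adjusted p = 0.284) with ID6 libraries spread from 63.9 to 272 CPM. Scap, the escort protein of the SREBPs, was at 0.01 (edgeR adjusted p = 0.986), and Acat2, Pmvk, Ebp and Sc5d lay between -0.35 and -0.08 with overlapping groups.

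**Figure D2:**
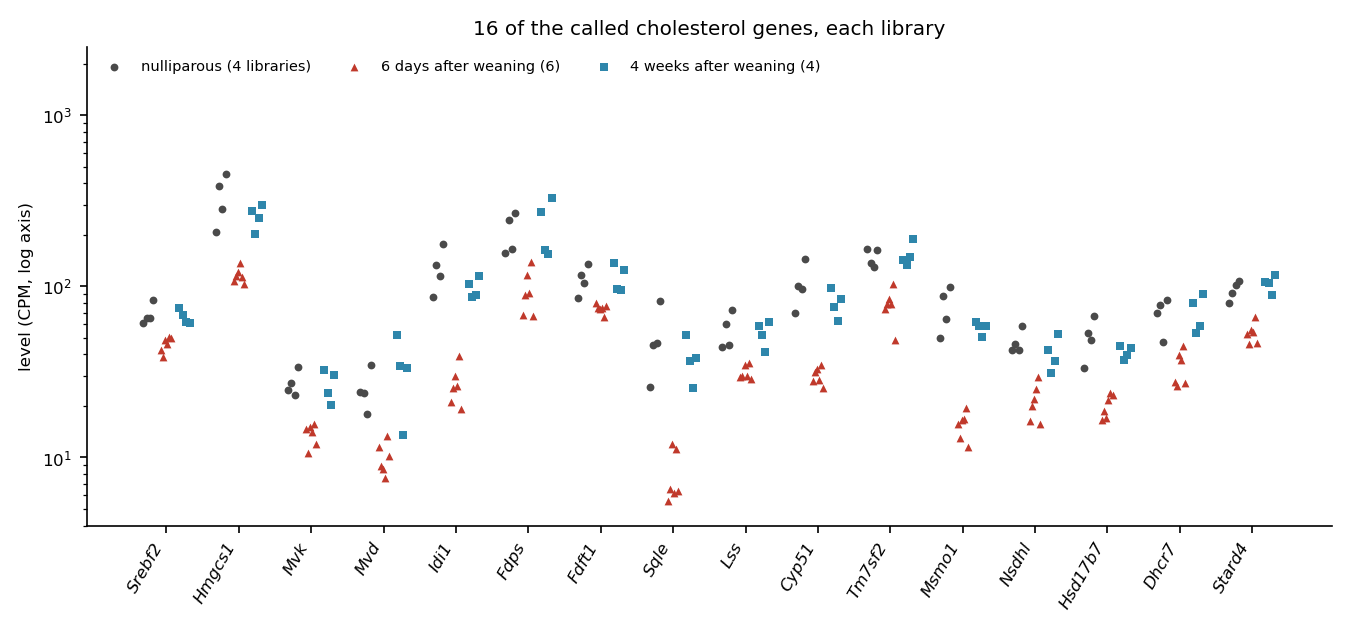
Points are single libraries, with the level in CPM on a log axis for 16 of the called cholesterol genes, in nulliparous (circles), 6 days after weaning (triangles) and 4 weeks after weaning (squares). For every gene shown the 6 triangles lie below the 4 circles, for example 5.60 to 12.0 against 25.9 to 82.5 CPM for Sqle.

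Of 23 lipogenic and triglyceride genes the desaturases Fads1 and Fads2, which make polyunsaturated fatty acids, were called lower (8.7%, against 0.682% of all genes), none was called higher, and the median was 0.08. Fads2 was at 436, 518, 406 and 514 CPM in NUL and 210.7 (lowest), 288 (median) and 371 CPM (highest) in ID6, without overlap (log2 fold change -0.70, SE 0.13, edgeR adjusted p = 0.00495). Fads1 overlapped slightly, with 470 to 606 CPM in NUL and 310 to 498 CPM in ID6 (-0.58, edgeR adjusted p = 0.0125, and 0.0666 without NUL_221). The following 3 genes are no list calls and were picked after their values were seen. Srebf1, the lipogenic sister of Srebf2, was at 442, 193, 355 and 508 CPM in NUL and 540 to 789 CPM in ID6, a log2 fold change of 0.86 that was not called (edgeR adjusted p = 0.365). Scd1, the stearoyl-CoA desaturase, gave 0.92 (edgeR adjusted p = 0.278) with ID6 libraries from 2865 to 9926 CPM, and Fasn, the fatty acid synthase, gave -0.02 (0.995).

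Among 21 genes of lipoprotein hydrolysis and fatty acid uptake 1 was called in each direction (0.402% of all genes higher and 0.682% lower), and both are lipases that act at the vessel wall. Without NUL_220, and in DESeq2 and limma, 2 were called higher, and 2 lower in DESeq2 and in 6 other edgeR fits. At an unadjusted p under 0.05, 7 of the 21 were higher and 3 lower (5.92% and 6.02% of all genes). In all ID6 libraries 1 gene lay above every NUL library and 4 below (1.59% and 1.79% of all genes). Lpl (chr8:68880491-68907448), lipoprotein lipase, had the largest rise of the 24 genes taken by size of change: 12.0, 7.54, 19.1 and 21.8 CPM in NUL against 48.3 (lowest), 53.9 (median) and 70.5 CPM (highest) in ID6. The groups were well separated, at a log2 fold change of 1.91 (edgeR adjusted p = 6.69e-04, SE 0.28). Lpl is also strongly expressed in fat and in macrophages. Of the fat markers, Adipoq (adiponectin) was at 0.0152 to 0.289 CPM in NUL and 0.0417 to 2.11 CPM in ID6, and Plin1 at 0 to 0.137 and 0.0278 to 0.944 CPM, so both overlapped between the groups. Of 5 tested fat markers none was called, but 4 had a log2 fold change above 0, in the same direction as Lpl, 3 were higher at an unadjusted p under 0.05 (5.92% of all genes), and the median was 2.50. The summed level of the 7 fat markers was 687 to 924 CPM in NUL and 433 to 737 CPM in ID6, nearly all of it from Car3. The part of fat cells and macrophages in the Lpl difference was not tested. Lipg, endothelial lipase, which prefers the phospholipids of HDL, went the other way, from 9.93, 12.7, 7.43 and 10.6 CPM in NUL to 1.98 to 5.44 CPM in ID6 (log2 fold change -1.44, SE 0.25, edgeR adjusted p = 0.00274). In the bile acid list Cyp8b1, which sets the share of cholic acid, was the single call among 22 genes, at 300 to 394 CPM in NUL and 170 to 312 CPM in ID6 (-0.57, edgeR adjusted p = 0.0443), and it lost the call without any 1 of 7 libraries. The list as a whole leaned the other way, with 13 of 22 genes above 0 and a median of 0.15. At an unadjusted p under 0.05, 6 were higher and 2 lower (5.92% and 6.02% of all genes). In DESeq2, and in the edgeR fit without NUL_220, 1 gene of the list was called higher.

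Of 22 genes of fatty acid oxidation and ketogenesis, 5 were called lower after weaning (0.682% of all genes) and none higher. At an unadjusted p under 0.05, 15 were lower (6.02% of all genes), and 10 were below every NUL library in all ID6 libraries (1.79% of all genes). The differences were small, with a list median of -0.28 and a summed level of 9021 to 9631 CPM in NUL against 7362 to 8542 CPM in ID6. Acadl, the long-chain acyl-CoA dehydrogenase, was at 205, 223, 214.3 and 201.3 CPM in NUL and 158 (lowest), 162 (median) and 184 CPM (highest) in ID6 (log2 fold change -0.35, SE 0.07, edgeR adjusted p = 0.00732). The mitochondrial importer Cpt2 (-0.47), the medium-chain dehydrogenase Acadm (-0.34) and the trifunctional protein subunit Hadhb (-0.33) were among the other calls. Acadm, with an edgeR adjusted p of 0.0492, lost its call in 9 of the 10 fits without 1 library (up to 0.155), with the 2 groups alone, with the length offset and in limma. Hadhb lost its call in 4 of the 10, with the length offset (-0.24, edgeR adjusted p = 0.582) and in limma (adjusted p = 0.616 and 0.618), while Acadl was called in all 10. In the list 1 gene was called without NUL_221 and 3 without each of ID6_216, NUL_226 and NUL_227. Mitochondrial RNA, here that of genes on the mitochondrial chromosome, moved in the same direction (2.87% to 4.47% of counts in ID6, 4.00% to 5.17% in NUL). It is made inside the organelle, and its part in these differences was not tested.

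Cyp4a14 (chr4:115486200-115496142), a fatty acid omega-hydroxylase and a classical PPAR alpha target, had the largest fall of the 24 genes taken by size of change. It was at 145, 183, 160 and 114 CPM in NUL and at 7.16 (lowest), 11.8 (median) and 40.6 CPM (highest) in ID6, without overlap but with a wide spread after weaning. The log2 fold change was -3.15 (SE 0.62, edgeR adjusted p = 0.0117). It was the single call among 19 tested fasting-inducible PPAR alpha targets, whose median was -0.56 and of which 8 were lower at an unadjusted p under 0.05 (6.02% of all genes). In this list 4 genes were called lower with the 2 groups alone, 5 in DESeq2 and 2 without ID6_232. Their summed level was 961 to 1307 CPM in NUL and 528 to 737 CPM in ID6.

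**Figure D3:**
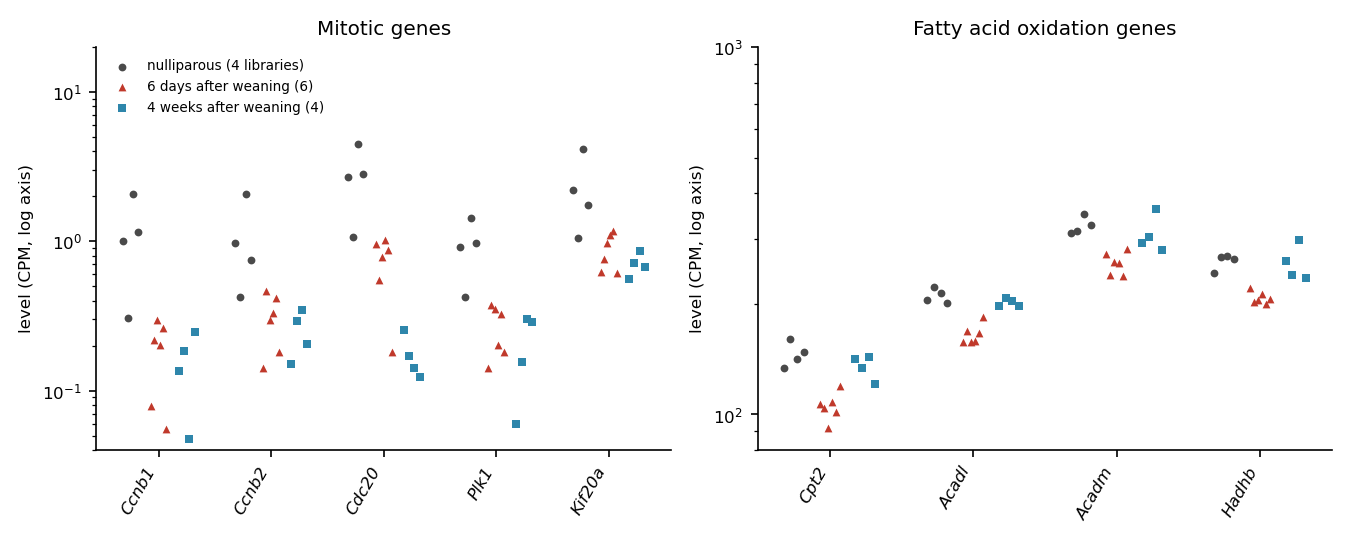
Single libraries with the level in CPM on log axes, for the 5 called mitotic genes (left) and 4 of the called fatty acid oxidation genes (right), in the same 3 groups and symbols. The mitotic genes are low after weaning at both 6 days and 4 weeks, with Ccnb1 at 0.0556 to 0.296 CPM in ID6, and the oxidation genes are slightly lower at 6 days, such as Acadl at 158 to 184 CPM against 201.3 to 223 CPM in NUL.

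The summed level of red cell markers was lower in every ID6 library than in any NUL library, and that of macrophage markers higher. In whole tissue, fewer cells of a type and less RNA per cell cannot be told apart, and livers hold a variable amount of blood. Of 8 tested erythroid markers 6 were called lower (0.682% of all genes) and none higher, with a list median of -2.36. Hba-a1 (chr11:32283511-32284465), an alpha globin gene, was at 96.5, 69.4, 140 and 68.1 CPM in NUL and at 8.14 (lowest), 12.2 (median) and 38.8 CPM (highest) in ID6. All ID6 libraries were below all NUL libraries (log2 fold change -2.50, SE 0.40, edgeR adjusted p = 0.00186). The other globin genes moved alike, by -2.31 (Hba-a2), -2.01 (Hbb-bs) and -2.54 (Hbb-bt), and their reads are shared between near-identical copies, so the split between them is uncertain. Slc4a1, the red cell anion exchanger, had 5, 12, 79 and 6 counts in NUL and 1 count in all 6 ID6 libraries together, too few for a fold change. Alas2, the first enzyme of heme synthesis in red cells, overlapped (-1.01, edgeR adjusted p = 0.189). The summed erythroid level was 351 to 729 CPM in NUL and 66.7 to 282 CPM in ID6, and the hemoglobin share of all counts was 0.0352% to 0.0729% and 0.00557% to 0.0250%. In a fit of the 2 groups alone 1 erythroid gene was called, and without NUL_226, the NUL library with the most globin RNA, 4 were.

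Of 18 Kupffer cell and macrophage markers, 6 were called higher (0.402% of all genes) and none lower, 15 were higher at an unadjusted p under 0.05 (5.92% of all genes), and the list median was 0.46. Cd5l, a secreted protein of tissue macrophages, rose the most clearly, from 115, 90.7, 108 and 106 CPM in NUL to 141 (lowest), 182 (median) and 255 CPM (highest) in ID6 (log2 fold change 0.86, SE 0.16, edgeR adjusted p = 0.0053). The macrophage surface receptor Adgre1 (0.50), the complement receptor Vsig4 (0.48) and the growth factor receptor Csf1r (0.45) were also higher without overlap, and the scavenger receptor Marco (1.06) and lysozyme Lyz2 (0.46) with overlap. Clec4f and Timd4, which mark resident Kupffer cells, gave 0.45 (edgeR adjusted p = 0.0552) and 0.52 (0.0503). The summed level of the 18 markers was 706 to 881 CPM in NUL and 954 to 1355 CPM in ID6, without overlap. The count of 6 fell to 2 without any 1 of ID6_201, ID6_216, NUL_221 and NUL_227, rose to 10 without ID6_209, and was 3 with the 2 groups alone. None of the tested markers of sinusoidal endothelium (12), bile duct (8), T and NK cells (14), B and plasma cells (9) or neutrophils (7) was called in this fit (1 endothelial gene was with the length offset), nor were the 9 genes of MHC class II presentation. Some of these moved in the same direction as the macrophage markers without a call: 13 of 14 T and NK cell genes had a log2 fold change above 0 (median 0.37, 3 higher at an unadjusted p under 0.05), as did 9 of 9 MHC class II genes (median 0.42) and 6 of 7 neutrophil genes (median 0.26, 2 higher unadjusted). Their part in the macrophage values was not tested. Of 16 tested acinar markers of the pancreas none was called (1 was, lower, with the 2 groups alone). Their summed level did not overlap, at 10.97 to 14.5 CPM in ID6 and 17.7 to 21.4 CPM in NUL. Cela1, which gave nearly all of it, was at 10.8 to 14.3 CPM in ID6 and 17.6 to 21.4 CPM in NUL (log2 fold change -0.61, edgeR adjusted p = 0.731), while 14 others, at or below 0.444 CPM in every library, had fitted changes above 0.

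**Figure D4:**
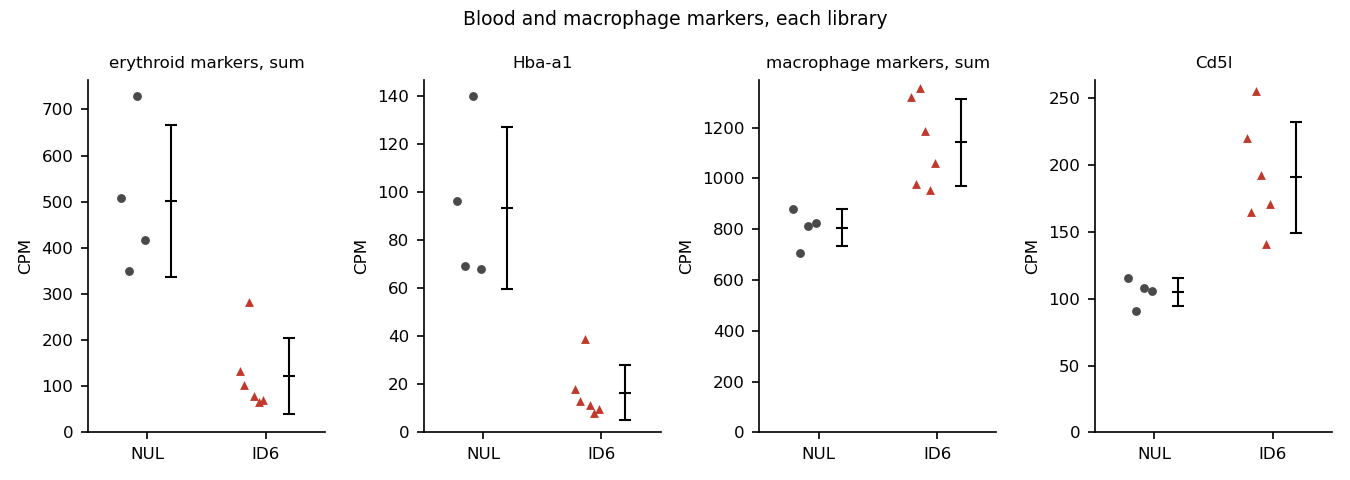
Points are single libraries and bars give the mean with 1 SD, for the summed level of the erythroid markers, Hba-a1, the summed level of the macrophage markers and Cd5l, all in CPM. Both erythroid panels show ID6 below NUL, with 1 ID6 library (282 CPM in the sum) above the others, and both macrophage panels show ID6 above NUL.

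Of 29 cell cycle genes 5 were called lower (Ccnb1, Ccnb2, Cdc20, Plk1 and Kif20a, against 0.682% of all genes) and none higher. The list median was -0.46 and 15 genes were lower at an unadjusted p under 0.05 (6.02% of all genes), but the summed levels overlapped, at 149 to 223 CPM in NUL and 147 to 192 CPM in ID6. Ccnb1, the cyclin that starts mitosis, was at 1.0, 0.305, 2.07 and 1.16 CPM in NUL and 0.0556 (lowest), 0.209 (median) and 0.296 CPM (highest) in ID6. The gap between the groups was narrow, since NUL_221 nearly reached the ID6 range, and the log2 fold change was -2.59 (SE 0.53, edgeR adjusted p = 0.0133). Its counts were 20 to 130 in NUL and 4 to 22 in ID6. Cdc20, which activates the anaphase-promoting complex, gave -1.93 (SE 0.38, edgeR adjusted p = 0.0102), and Plk1, a mitotic kinase, -1.82 (SE 0.40, 0.0157). Mki67, a proliferation marker in wide use, named here after its values were seen, was not called (-0.46, edgeR adjusted p = 0.757). Without NUL_226, the highest NUL library for all 5, none of them was called, and with the 2 groups alone 2 were. NUL_226 also had the highest summed level of erythroid markers in NUL (729 CPM) and NUL_221 the lowest (351 CPM), both sets of genes were lower in ID6, and the part of blood cells in the mitotic values was not tested.

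Beyond the lists above, the steepest differences that left a gap between the groups belonged to genes of varied function. Rdh16f2 (chr10:127866474-127877317), a retinol dehydrogenase family member, was at 38.1, 18.6, 21.9 and 29.8 CPM in NUL and 76.4 (lowest), 83.9 (median) and 129 CPM (highest) in ID6 (log2 fold change 1.83, SE 0.21, edgeR adjusted p = 2.67e-05). It was the single call among 22 genes of retinoid and thyroid hormone handling (0.402% of all genes were called higher). That list leaned the other way, with 15 of 22 genes below 0 and a median of -0.08. At an unadjusted p under 0.05, 3 were higher and 7 lower (5.92% and 6.02% of all genes). Cyp2a4 (chr7:26307169-26315088), a female-predominant steroid hydroxylase, went from 545, 426, 621 and 756 CPM in NUL to 1058 to 1255 CPM in ID6 (log2 fold change 1.0, SE 0.15, edgeR adjusted p = 4.57e-04). It was the single call among 32 xenobiotic P450 genes (0.402% of all genes were called higher). The reads of Cyp2a4 are shared with close paralogs, since its counts were fractional in all 27 libraries. Saa3, the serum amyloid A made mainly by macrophages and fat, was at 6.94, 6.81, 6.19 and 6.03 CPM in NUL and 14.0 to 31.2 CPM in ID6 (1.74, SE 0.34, edgeR adjusted p = 0.00979). It was the 1 call among 25 acute phase proteins (0.402% of all genes were called higher). The macrophage markers moved in the same direction, but their part in the Saa3 difference was not tested.

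Adam11, a membrane protein of the ADAM family that lacks protease activity, was at 4.65, 2.26, 1.83 and 1.84 CPM in NUL and 7.78 to 11.5 CPM in ID6 (log2 fold change 1.83, SE 0.35, edgeR adjusted p = 0.00863). With the length offset its change was 1.31 and was not called (edgeR adjusted p = 0.0779). The remaining 6 genes of the largest rises were expressed at a few CPM and gave log2 fold changes of 1.3 (Gdpd1), 1.20 (S100g, a calcium-binding protein), 1.17 (Neb, a giant actin-binding protein of muscle), 1.15 (Ifi27l2b), 0.97 (Itpka, an inositol trisphosphate kinase) and 0.75 (Rasa4, a Ras-inactivating protein). Of these, S100g, Neb, Ifi27l2b and Rasa4 lost the call in 2 to 5 of the 10 fits without 1 library. With the 2 groups alone Neb (edgeR adjusted p = 0.12) and Rasa4 (0.0681) were not called, and Rasa4 was not called with the length offset either (0.303) or in limma (0.106 and 0.154). Ugt1a9, a glucuronosyltransferase, was also higher (0.73, edgeR adjusted p = 0.0102, and 0.061 without NUL_221), and Ugt3a1 was lower (-0.71, 0.0167, and 0.0868 without NUL_221). They were the 2 calls among 36 phase II enzymes (0.402% of all genes were called higher and 0.682% lower).

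Slc39a5 (chr10:128395931-128401229), a zinc importer, was at 9.34, 9.19, 9.16 and 8.03 CPM in NUL and at 1.69 (lowest), 2.32 (median) and 3.21 CPM (highest) in ID6 (log2 fold change -1.92, SE 0.20, edgeR adjusted p = 1.9e-06). It was the 1 call among 20 tested genes of iron, zinc and metallothionein handling (0.682% of all genes were called lower). At an unadjusted p under 0.05, 4 of that list were higher and 5 lower (5.92% and 6.02% of all genes). Ntrk2 (chr13:58806569-59133970), the BDNF receptor, was at 24.4, 18.4, 14.6 and 19.9 CPM in NUL and 1.32 to 7.77 CPM in ID6 (-2.55, SE 0.59, edgeR adjusted p = 0.0356), and its call was lost without any 1 of 8 libraries, with the largest value of 0.0873 without ID6_216. Pcp4l1, a small calmodulin-binding protein relative, went from 48.4, 39.4, 49.7 and 56.3 CPM to 8.94 to 28.6 CPM (-1.55, SE 0.32, edgeR adjusted p = 0.0158, and 0.0607 without NUL_227).

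Amino acid metabolism held 3 calls among 28 genes, all lower (0.682% of all genes), and 1 without each of ID6_216, NUL_220, NUL_221 and NUL_227 and with the 2 groups alone. Oat, ornithine aminotransferase, was at 498, 458, 333 and 546 CPM in NUL and 205 to 323 CPM in ID6 (log2 fold change -0.79, SE 0.13, edgeR adjusted p = 0.00131). Bhmt, which remethylates homocysteine with betaine, gave -1.11 (SE 0.25, 0.0237) but overlapped, since NUL_226 (1813 CPM) lay within the ID6 range of 729 to 1884 CPM, and it lost the call without each of the same 4 libraries (0.0608 to 0.0899) and with the 2 groups alone (0.141). The mitochondrial ornithine carrier Slc25a15 gave -0.39 (edgeR adjusted p = 0.0371) with overlap, and lost the call without any 1 of 7 libraries. Several programmes known to respond to feeding, stress or immunity held no call in the edgeR fit of all libraries. Of 21 genes of glucose production and glycolysis none was called (1 higher and 4 lower at an unadjusted p under 0.05, against 5.92% and 6.02% of all genes), with Pck1, the gluconeogenic carboxykinase, at a log2 fold change of -0.24. The 22 interferon-stimulated genes and the 25 of endoplasmic reticulum folding held no gene even at the unadjusted level. Cytosolic heat shock proteins (15 genes, 3 lower unadjusted), matrix and stellate genes (25, 4 lower), pericentral genes (15, 4 lower), periportal genes (11, 1 lower) and growth hormone signalling (16, 3 higher and 1 lower) held none in that fit either, and the share lower at the unadjusted level was above that of all genes (6.02%) most clearly in the pericentral and heat shock lists. Other edgeR fits called 1 pericentral gene (with the stricter filter, and without NUL_220 or NUL_221), 1 heat shock gene (without NUL_226) and 1 matrix gene (without NUL_221), all lower, and DESeq2 called 1 gene of glucose production, 1 heat shock gene and 2 pericentral genes lower. The 15 core clock genes, which show the hour of sampling, had no call, with Nr1d1 at 0.13 and a range of 5.46 to 38 CPM within NUL alone.

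The place of 6 days after weaning among the stages differed between the genes. Sqle averaged 50.2 ± 23.6 CPM (SD, n = 4) in NUL, 138 ± 19.6 (n = 3) in LAC, 57.8 ± 16 (n = 3) in ID2, 4.14 ± 1.21 (n = 4) in ID4, 8.01 ± 2.86 (n = 6) in ID6, 18.4 ± 6.66 (n = 3) in ID8 and 38.1 ± 10.8 (n = 4) in REG, so ID6 was the second lowest stage. Lpl was highest in LAC at 122 ± 34.9 CPM, and among the other stages ID6 had the highest mean, 56.6 ± 7.77 CPM, next to 40.7 ± 11.2 in ID4, from which it did not differ beyond the spread. Rdh16f2 and Cyp2a4 were lowest in NUL, at 27.1 ± 8.71 and 587 ± 138 CPM, with means of 63.1 to 128 and 1139 to 1447 CPM over the other 6 stages. Slc39a5 averaged 8.93 ± 0.61 CPM in NUL, 7.27 ± 1.3 in LAC, 5.32 ± 0.35 in ID2 and 2.36 to 3.33 CPM in the later stages, whose ranges of 1 SD overlapped. Hba-a1 was at 16.6 ± 11.4 CPM in ID6 and 4.49 ± 0.67 CPM in ID8, and between 93.5 and 163 CPM on average in the others. Cd5l and Saa3 were highest in ID4 (197 ± 26.4 and 25.3 ± 8.03 CPM) and ID6 (190 ± 41.5 and 21.7 ± 7.94 CPM), neighbours that did not differ beyond their spread.

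**Figure D5:**
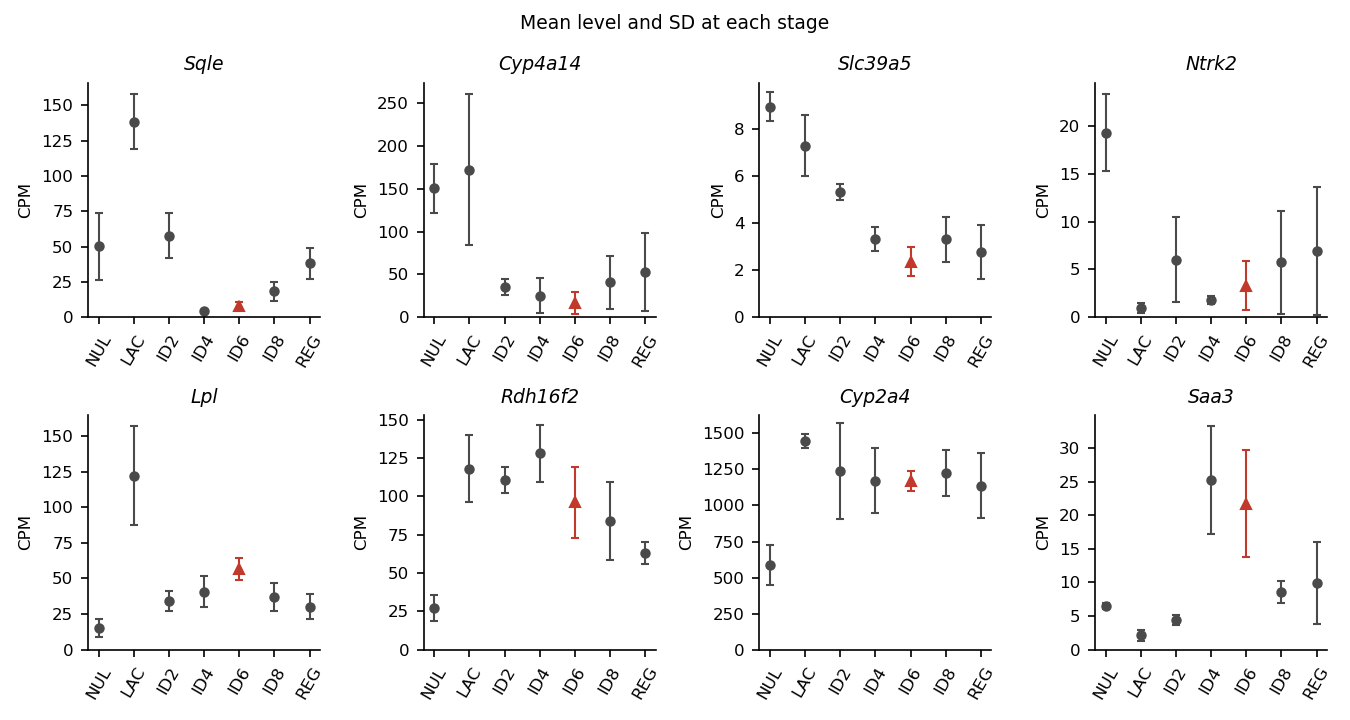
Mean level in CPM with 1 SD at each of the 7 stages for 8 genes named in the text, with 6 days after weaning as a red triangle. Sqle and Cyp4a14 are low at 6 days, Slc39a5 stays low to 4 weeks, and Rdh16f2 and Cyp2a4 are lowest in NUL.

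Set against REG, animals that had lactated and were 4 weeks past weaning, the same ID6 libraries had 277 called genes (1.69%), with 0.615% of the tested genes higher and 1.07% (176 genes) lower. The comparisons share the ID6 libraries, so their values stand side by side and neither supports the other. Cholesterol genes were lower in this comparison too, 21 of 26, with Sqle at -2.25 (edgeR adjusted p = 4.52e-04) and Msmo1 at -1.89 (3.37e-07), and so were 6 of 8 erythroid genes, with Hba-a1 at -2.61 (0.00194). Of the macrophage genes, 6 of 18 were higher. Cell cycle genes differed: none was lower, 4 were higher, Ccnb1 gave 0.26 (edgeR adjusted p = 0.902) and Cdc20 gave 2.07 (0.0344), with its REG libraries at 0.123 to 0.256 CPM. Several genes with large differences from NUL were not called against REG: Slc39a5 gave -0.24 (edgeR adjusted p = 0.687), Cyp2a4 0.04 (0.943), Neb -0.10 (0.901), Rdh16f2 0.61 (0.122), Lpl 0.91 (0.0862) and Cyp4a14 -1.64 (0.191). Whether a gene's difference from NUL exceeds its difference from REG was not tested. A fit without REG_239 called 30 genes higher and 80 lower than in REG, and a fit without REG_203 called 44 and 110. No clock gene was called against REG, but the medians were -0.59 for the 10 that peak by day and 0.42 for the 5 that peak by night, and the summed night genes did not overlap (172 to 199 CPM in ID6, 126 to 168 CPM in REG). The part of the hour of sampling in the differences from REG was not tested.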

How the data were processed

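The deposited tables give, per gene and library, expected counts, TPM and effective lengths. Reads were aligned with STAR 2.6.1a to mm10 (GRCm38) and quantified with RSEM 1.3.1, per the submitters' processing notes. The annotation release, trimming and use of strand are not given in the sources used here. The authors' expected counts, which RSEM splits among similar genes (6.10% to 7.04% of genes per library were not whole numbers, tolerance 0.004), were rounded to whole numbers. The authors' TPM values, which sum to the same total in every library and so keep no depth, were used in alternatives with limma 3.58.1, and the deposited effective lengths as an offset in one. Gene names and coordinates come from GENCODE M21, which holds 51633 of the 51826 identifiers.

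All 27 libraries entered one edgeR 4.0.16 fit (R 4.3.3) with 7 stages, filterByExpr (minimum count 10, minimum total 15), TMM scaling, robust glmQLFit and glmQLFTest, with Benjamini-Hochberg adjustment and a threshold of 0.05. No replicate number is shared between groups. Alternatives included DESeq2 1.42.0 and leaving out each library. The scripts were tested on simulated data. The biological coefficient of variation was 0.19.

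The members and lists were chosen with earlier results of these data known. Genes were named if called, without overlap between ID6 and NUL, expressed at 1 or more on average as log2(CPM + 0.1), and carrying a symbol that is not a placeholder, the 12 largest rises and the 12 largest falls. List members that were called were named too, and for a list with no call its most abundant members. Some genes this rule takes are not reported here by name, though the counts and sums of lists include them. Depth, 60498871 to 75664540 counts in the 10 libraries, leaves genes under 1 CPM with few counts.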

Additional observations from a re-analysis of the deposited data

Results flagged for a closer look

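In 10 of 64 sets of values (1 group's levels of a named gene, list or library share), 1 library stood apart from the others of its group by Dixon's test, which flags about 1 in 20 by chance, and these sets are not independent. Of the 10, 7 concern ID6_216. That library had the most hemoglobin RNA of its group, with 38.8 CPM of Hba-a1 (the others 8.14 to 18.2), 64.5 CPM of Hba-a2 (14.3 to 26.5), 142.6 CPM of Hbb-bs (26.1 to 66.8), 11.7 CPM of Hbb-bt (1.80 to 3.83), an erythroid sum of 282 CPM (66.7 to 134) and a hemoglobin share of 0.0250% (0.00557% to 0.0113%). It also had the highest albumin share, 11.9% against 8.12% to 9.13%. NUL_220 had 4.65 CPM of Adam11 against 1.83 to 2.26 CPM in the other NUL libraries. NUL_227 had 8.03 CPM of Slc39a5 against 9.16 to 9.34 CPM, and 4.00% mitochondrial RNA against 5.02% to 5.17%. In each of these gene and list values the named library still lay on its own group's side of the other group.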

How the results depend on the processing

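No paired analysis was possible because no replicate number is shared between the groups. Across alternatives, 64 named genes gave 1276 values, of which 1120 stayed past the threshold, 156 did not and 0 changed direction, and 26 genes were called in every alternative. Of the 24 genes taken by size, 17 were called in each of the 10 fits without 1 library. Counts of calls over all genes are given here as shares of the genes tested in each fit. With no filter on low counts (26430 genes tested), 0.246% were higher and 0.397% lower than in NUL, and 0.272% and 0.53% against REG. With the stricter filter (12611 genes tested), 0.65% were higher and 1.03% lower than in NUL, and 0.928% and 1.49% against REG. Against NUL, the share called higher (0.402%) became 0.248% with the 2 groups alone, 1.24% in DESeq2, 0.797% and 0.779% in limma with 1 and 0.1 added to TPM, and 0.116% at an adjusted p under 0.01. The share called lower (0.682%) became 1.5% in DESeq2, 0.42% and 0.408% in limma and 0.292% at 0.01. Genes higher in ID6 were thus 65.5% and 65.6% of the calls in limma, against 37.1% in edgeR. Without 1 library, 0.171% (without NUL_221 or NUL_227) to 0.605% were higher and 0.446% (without NUL_221) to 0.757% lower. Against REG, the share called higher (0.615%) became 0.268% with the 2 groups alone, 0.365% with the length offset, 0.274% with the run covariate, 1.38% in DESeq2 and 0.0609% at 0.01. The share called lower (1.07%) became 0.622% with the 2 groups alone, 0.645% with the run covariate, 2.09% in DESeq2, 0.554% and 0.572% in limma and 0.414% at 0.01. Without 1 library, 0.183% to 0.708% were higher and 0.488% to 1.38% lower, both lowest without REG_239. Leaving out ID6_201, ID6_209, ID6_216, ID6_232, REG_203 or REG_234 also moved 1 or both of these shares by over 1.5 times. Cholesterol calls were 14 to 19 without 1 library. Macrophage calls (6) became 3 with the 2 groups alone, 11 in DESeq2 and 10 in limma on log2(TPM + 0.1), and ranged from 2 to 10 without 1 library. Cell cycle calls (5) became 2 with the 2 groups alone and 3 in limma on log2(TPM + 1), and 0 (without NUL_226) to 6 without 1 library. Erythroid calls (6) became 1 with the 2 groups alone and 4 to 6 without 1 library. Oxidation calls (5) became 3 with the length offset, 8 in DESeq2 and 1 to 5 without 1 library. Lists with 1 or 2 calls moved too, the furthest in DESeq2, where PPAR alpha targets had 5 lower and the retinoid list 2 higher and 4 lower. Apart from fewer samples in the fits without a library, the cause was not tested. Genes such as Ccnb1 and Slc4a1 rest on few counts, and small differences between groups of 4 and 6 may be missed.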
